A study of Mus musculus with 35 samples.

Results

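The endogenous retroviruses of the ERVK and ERV1 groups were followed here through the first cleavage of the mouse embryo, in zygotes and early 2C embryos that had received Kdm5b-yfp mRNA or water. Members were taken by name from a table of estimated read counts per repeat name. A repeat name was kept if it began with IAP, ETn, MMETn, MMERVK, RLTR, ERVB, MYSERV, MuRRS, MMERGLN or MLTR, which gave 269 of the 18536 names in the table. The rule used names and no counts, though it was set with earlier results of these data known. The members fell into 25 IAP names, 5 of ETn and MusD, 5 MMERVK, 21 ERVB, 3 MYSERV, 4 of MuRRS and MMERGLN, 20 MLTR and 186 other RLTR names. By the form of the name, 42 were internal parts (the region that codes for retroviral proteins) and 227 were long terminal repeats (LTRs). The table gave no class for any repeat, so these groups rest on the names alone.

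The embryos were wild-type C57BL/6NRj. Water-injected controls comprised 10 single zygotes and 9 samples at the 2C stage, and embryos given Kdm5b-yfp mRNA comprised 10 single zygotes and 6 samples at 2C. Most 2C samples were intact single embryos. The others were pools of lone surviving blastomeres, namely 3 of the control samples (from 2, 3 and 3 embryos) and 1 Kdm5b sample (from 3 embryos). Zygotes were injected in S phase and taken 17 h after ovulation, and 2C embryos were injected in G1 in both blastomeres and taken 5.5 to 8 h after division. The injected mRNA encoded KDM5B with a YFP tag, so each Kdm5b embryo carried a foreign transcript, whereas the controls received only the water used to elute it. The 2C embryos had been frozen and thawed as zygotes and their libraries were made on a different day from those of the zygotes. Developmental stage, freezing and library day therefore cannot be told apart in any comparison of 2C embryos with zygotes.

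Endogenous retroviruses are remnants of germline infections. An intact copy has an internal part with gag, pol and often env genes between a pair of LTRs, which hold the promoter and polyadenylation signal, and recombination between the LTRs leaves solitary LTRs that can act as promoters or enhancers of nearby genes. ERVK families such as IAP, ETn, MusD and MMERVK10C are related to betaretroviruses, and several of them can still transpose in mice. ERV1 families such as RLTR4, RLTR6, MuRRS and MMERGLN are related to murine leukaemia viruses. In embryonic cells the KRAB zinc-finger proteins, their cofactor TRIM28, the H3K9 methyltransferase SETDB1 and DNA methylation silence many of these copies, and part of this repression is rebuilt after fertilisation. KDM5B removes methyl groups from lysine 4 of histone H3, a mark of active promoters.

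Each sample held between 4131188 and 7284584 repeat counts and between 71513 and 166328 counts on the members. Kdm5b itself took 2.30 to 10.4% of the gene counts of Kdm5b zygotes and 8.27 to 15.8% of those of Kdm5b 2C embryos, against at most 0.0189% in any control, so every library matched its injection label. All 8 oocyte and zygote markers were detected in every group at a median above 1 CPM (counts per 1000000 gene counts). The 9 markers of the 2-cell stage summed to 8.47 to 37.1 CPM in zygotes and to 77.3 to 445 CPM in 2C embryos, with 4 of 9 and at least 8 of 9 above a median of 1 CPM. Markers of cumulus and granulosa cells summed to at most 40.1 CPM in any sample, with at most 2 of 10 above a median of 1 CPM, and Foxl2, Amhr2 and Fshr were below that level in every group.

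Most members had enough counts to be tested singly, and a few names carried a large part of the counts. In control zygotes 246 members had a median of at least 10 counts and 143 a median of at least 100. RLTR10-int took 13.8% of the member counts there, IAPEz-int took 11.3%, and the 8 largest members together took 47.0%. Control 2C embryos had the opposite order at the top, with 17.3% on IAPEz-int and 8.16% on RLTR10-int, and 43.1% on the 8 largest members. Among 148 members with a mean of at least 100 counts, the median coefficient of variation between samples was 20.0% in control zygotes, 14.9% in Kdm5b zygotes, 27.2% in control 2C embryos and 19.9% in Kdm5b 2C embryos. RLTR20A4 varied least among control zygotes (5.16%) and MuRRS-int most (54.1%), while RLTR10D reached 85.8% among control 2C embryos.

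Whether the members as a whole were higher or lower at 2C depended on what they were measured against. As a share of all repeat counts they made up 2.49% ± 0.271 (SD, n = 10) in control zygotes, with a lowest, median and highest sample of 1.96, 2.48 and 2.95%. The share was 2.38% ± 0.189 (SD, n = 10) in Kdm5b zygotes, where samples ran from 2.00 over 2.43 to 2.57%. It was 1.91% ± 0.262 (SD, n = 9) in control 2C embryos, with 1.65, 1.80 and 2.47%. In Kdm5b 2C embryos it was 1.96% ± 0.280 (SD, n = 6), from 1.61 over 1.96 to 2.25%. The 2C samples thus lay mostly below the zygotes, with some overlap in either injection. In an exact permutation test (two-sided, adjusted over 8 tests) the share was lower at 2C in controls (adjusted p = 0.003996) and in Kdm5b embryos (adjusted p = 0.01099). Without the 3 members of largest share, RLTR10-int, IAPEz-int and RLTR10, the Kdm5b difference went from -4209 to -1972 counts per 1000000 repeat counts and no longer passed (permutation test, adjusted p = 0.0724).

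Relative to gene counts, with Kdm5b left out, the direction turned. Member counts equalled 0.857% ± 0.116 (SD, n = 10) of gene counts in control zygotes, 0.844% ± 0.0693 (SD, n = 10) in Kdm5b zygotes, 1.07% ± 0.149 (SD, n = 9) in control 2C embryos and 1.06% ± 0.136 (SD, n = 6) in Kdm5b 2C embryos. The same exact permutation test found the 2C value higher in controls (adjusted p = 0.009411) and in Kdm5b embryos (adjusted p = 0.003996). Beside this stood the ratio of all repeat counts to gene counts, whose median was 0.345 and 0.349 in control and Kdm5b zygotes and 0.576 and 0.533 at 2C. With totals adjusted by factors that hold the bulk of repeats level (trimmed mean of M values, TMM), the 2C minus zygote differences were 1262 counts per 1000000 repeat counts (repeat CPM) in controls and 413 in Kdm5b embryos, and neither passed (permutation tests, adjusted p = 0.590 and 0.7645). These are shares of the RNA sequenced from each embryo. Each zygote sample held 1 cell and each 2C sample 2 or 3 blastomeres, but such shares do not give the RNA per cell. A fall in 1 kind of RNA and a rise in the others cannot be told apart in them. A repeat name also collects reads from host transcripts that contain copies of it. The plot of summed member counts shows both scales.

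**Figure D1:**
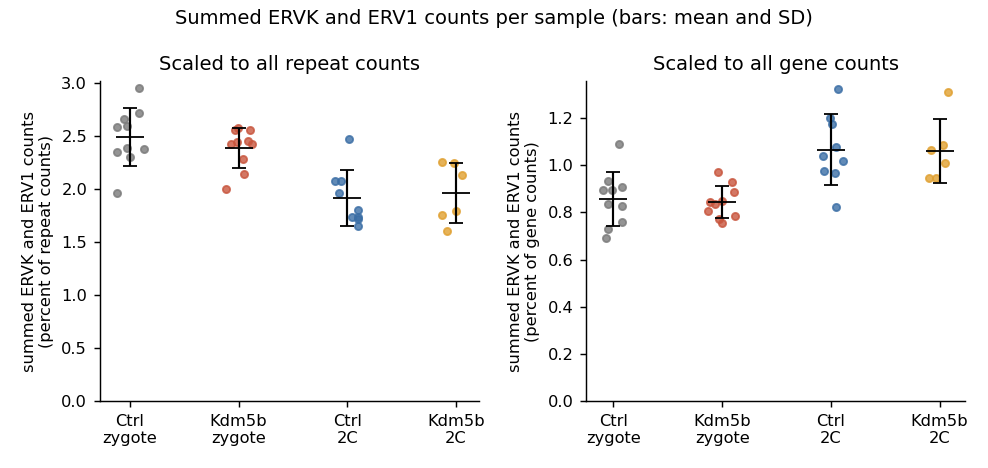
Summed counts of the 269 members per sample, as percent of all repeat counts and as percent of all gene counts without Kdm5b, for the 4 groups; each point is 1 sample, and the marks with bars give the mean and SD. The 2C embryos had lower means than the zygotes on the repeat scale (1.91 and 1.96% against 2.49 and 2.38%) and higher means on the gene scale (1.07 and 1.06% against 0.857 and 0.844%).

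A ratio to another repeat class within the same sample needs neither total. The members had a median of 1.28 counts for each count on ERVL names (the group of MERVL and its LTR MT2, which is transcribed at the 2-cell stage) in control zygotes and of 0.167 in control 2C embryos. For Kdm5b embryos the corresponding ratios were 1.13 and 0.283. Both differences passed a permutation test over 12 ratio tests (exact, adjusted p = 0.0002598 and 0.001499), and zygotes and 2C embryos did not overlap in either injection. Against LINE-1 the ratio went from 0.623 to 0.532 in controls and from 0.629 to 0.497 in Kdm5b embryos (exact permutation test, adjusted p = 0.001689 for each). Against MaLR names, a group related to ERVL, the medians were 0.0618 and 0.0548 in controls and 0.0572 and 0.0523 in Kdm5b embryos. Neither difference passed (exact permutation test, adjusted p = 0.2043 for each). None of the ratios passed between Kdm5b and control embryos of a stage, with a smallest adjusted p of 0.2043.

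The mixture of classes within the members shifted between stages, which is also free of both totals. IAP names took 14.5% ± 3.44 (SD, n = 10) of member counts in control zygotes and 23.7% ± 3.14 (SD, n = 9) in control 2C embryos. In Kdm5b embryos the IAP share was 14.0% ± 2.06 (SD, n = 10) in zygotes and 20.2% ± 2.28 (SD, n = 6) at 2C. The lowest, median and highest samples were 8.84, 15.4 and 20.6% in control zygotes, 10.3, 14.1 and 18.5% in Kdm5b zygotes, 19.6, 23.0 and 30.0% in control 2C embryos and 16.3, 20.4 and 22.8% in Kdm5b 2C embryos, so the highest zygotes reached into the 2C range. The other RLTR names went the other way, from 61.3 to 51.0% in controls and from 61.4 to 53.8% in Kdm5b embryos, with no overlap between stages.

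Over 32 tests of a class share, 15 passed by permutation at an adjusted p under 0.05. In controls 7 of the 8 classes differed between stages. MMERVK rose from 4.46 to 5.68%, ETn and MusD from 1.22 to 1.67%, ERVB from 2.95 to 3.56%, and MuRRS with MMERGLN from 2.64 to 3.39%, whereas MLTR fell from 9.38 to 7.93%. IAP and the other RLTR names had adjusted p = 0.001039 and 0.0006928 in exact permutation tests. The same 7 classes passed in Kdm5b embryos in the same directions. MYSERV did not pass, at 3.55 and 3.04% in controls (adjusted p = 0.05677, exact permutation) and 3.88 and 3.53% in Kdm5b embryos (adjusted p = 0.3037, exact permutation). Because shares sum to a whole, these tests are not independent of each other.

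The 3 members of largest share in control zygotes weigh on these values. Without RLTR10-int, IAPEz-int and RLTR10, the IAP share still rose, from 5.48 to 7.36% in controls (exact permutation, adjusted p = 0.00139) and from 5.47 to 6.64% in Kdm5b embryos (exact permutation, adjusted p = 0.00400). The fall of the other RLTR names shrank to 59.2 against 57.6% in controls (exact permutation, adjusted p = 0.0219) and to 59.1 against 58.3% in Kdm5b embryos, where it no longer passed (exact permutation, adjusted p = 0.455). MYSERV, which had not passed with all members, then fell in both injections. Its share went from 5.19 to 4.20% in controls (exact permutation, adjusted p = 0.00222) and from 5.58 to 4.75% in Kdm5b embryos (exact permutation, adjusted p = 0.0143).

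**Figure D2:**
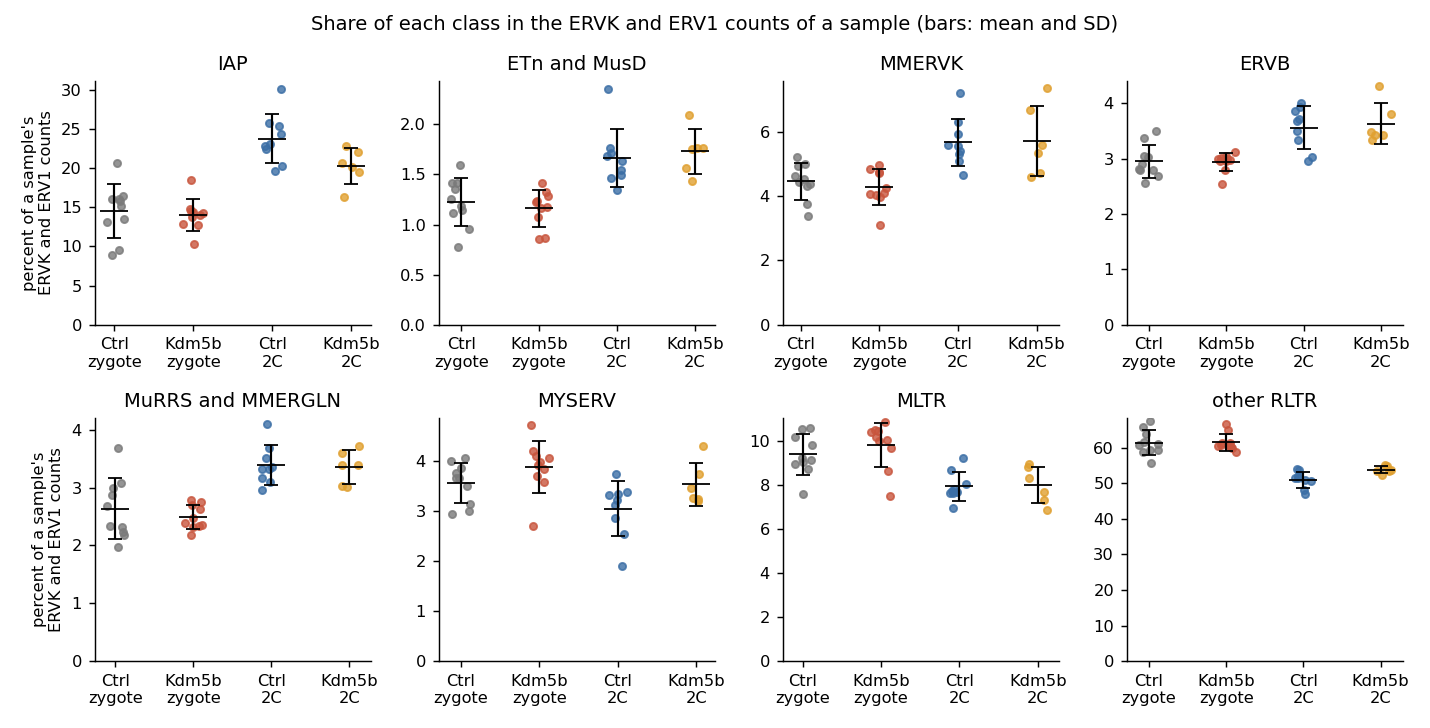
Share of member counts taken by each of the 8 name classes, in percent, for the 4 groups; each point is 1 sample and the marks with bars give the mean and SD. The IAP share lay between 8.84 and 20.6% in zygotes and between 16.3 and 30.0% in 2C embryos.

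Single members were compared with edgeR's quasi-likelihood test over all repeats that passed a filter on low counts. A member was called when its adjusted p was under 0.05 and its fold change exceeded 2 in either direction (1 on the log2 scale). Fitted with factors from the repeats themselves ("repeat factors"), 21 members rose and 2 fell from control zygotes to control 2C embryos, of 249 tested. The background over all 2635 repeats tested was 3.91% higher and 5.65% lower. For embryos with Kdm5b, 27 of 249 members rose and 4 fell, against 5.26% higher and 8.72% lower among 2740 repeats. Leaving out Kdm5b 2C replicate 5 brought the latter counts to 17 and 2. The median log2 fold change of the members was 0.23 in controls and 0.29 in Kdm5b embryos, beside 0.06 and 0.04 for all repeats tested. That background includes many simple repeats, which are short tandem motifs. Without them the medians over all other repeats, members included, were 0.19 and 0.22, and LINE-1 names had 0.30 and 0.34. In controls 63 of the 1057 non-simple repeats rose and 21 fell, and 11 of 135 LINE-1 names rose and 0 fell. A rise of this size was thus not particular to the members.

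Scaling by gene totals moved these counts as it moved the sums. When totals and factors came from the gene counts instead ("gene factors"), 47 members rose and 1 fell in controls, beside a background of 9.56% higher and 3% lower. In Kdm5b embryos 69 rose and 2 fell, beside 15% and 4.12%. The median over all repeats lay higher by 0.307 (log2) in controls and by 0.408 in Kdm5b embryos than with repeat factors. Plain repeat totals without factors lowered that median by 0.478 and 0.331 relative to repeat factors, and then 6 members rose and 16 fell in controls, and 9 rose and 14 fell in Kdm5b embryos. Directions of members with small fold changes therefore rest on the scaling. Called members had changes past 1, larger than these shifts, so a kept sign says little about them. Of the 23 members called in controls, 22 were also called with gene factors and 8 with plain repeat totals. Of the 31 called in Kdm5b embryos, 29 and 13 were.

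The control and Kdm5b stage comparisons share no sample. Of the members that rose, 13 did so in both, which is 61.9% of the control list and 48.1% of the Kdm5b list. Both members that fell in controls, RLTR10 and RLTR20B3A_MM, also fell in Kdm5b embryos, where they made up 50% of the list. Across the 247 members fitted in both, the log2 fold changes correlated with Pearson's r = 0.80 and Spearman's rho = 0.78. Of these members, 154 were higher at 2C in both and 59 lower in both. Members are not independent replicates, and both comparisons contain the same difference of library day and freezing. The plot of stage differences places each member by its 2 fold changes.

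**Figure D3:**
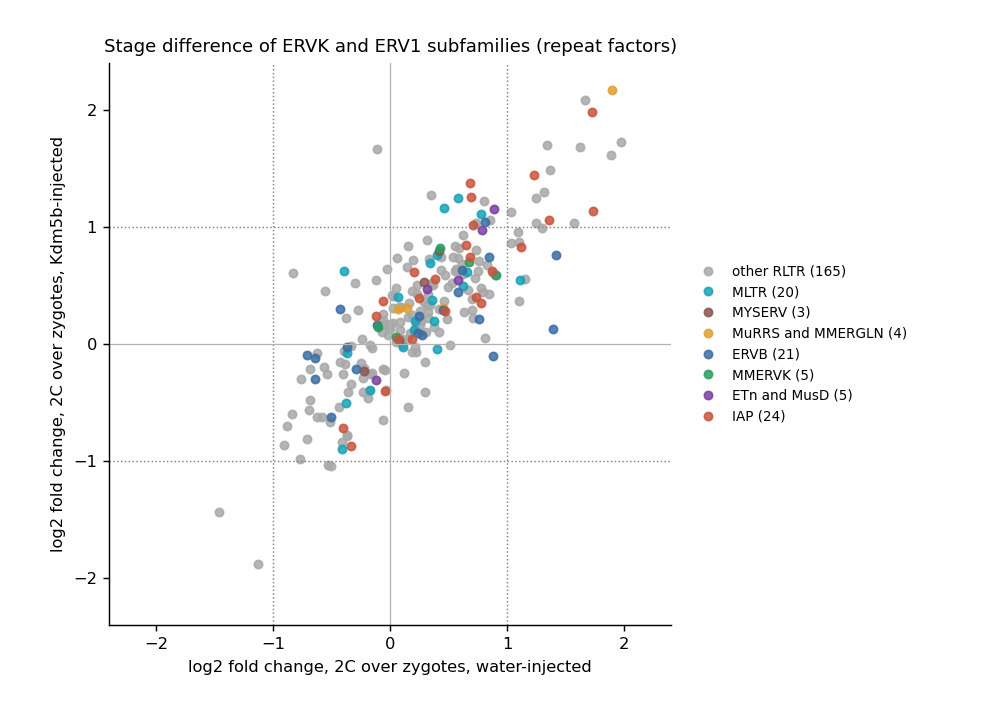
Log2 fold change from zygote to 2C of each member fitted in both comparisons (n = 247), in water-injected embryos (x axis) and in Kdm5b-injected embryos (y axis), with repeat factors; colours mark the name classes and dotted lines a change of 1. Most points lie along the diagonal, with 154 members higher at 2C in both and 59 lower in both.

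Among the leukaemia virus-like ERV1 names, the 3 RLTR6 names and MuRRS-int rose in controls. RLTR6-int had 136, 200.0 and 376 repeat CPM on the TMM-adjusted scale (lowest, median and highest sample) in control zygotes and 159, 182 and 256 in Kdm5b zygotes. The values were 280.1, 657 and 1292 in control 2C embryos and 446, 508 and 1025 in Kdm5b 2C embryos. Every Kdm5b 2C embryo was above every Kdm5b zygote, while the highest control zygote passed the lowest control 2C sample. RLTR6-int rose by 1.62 ± 0.20 (log2, SE) in controls (edgeR, adjusted p = 1.02e-06) and by 1.68 ± 0.15 in Kdm5b embryos (edgeR, adjusted p = 4.07e-09).

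The other two RLTR6 names are LTRs. RLTR6B_Mm ran from 18.5 to 32.1 repeat CPM with a median of 24.0 in control zygotes, and from 41.7 to 93.3 with a median of 57.6 in control 2C embryos, without overlap. It rose by 1.32 ± 0.17 in controls and by 1.30 ± 0.17 in Kdm5b embryos, where zygotes reached at most 30.2 and 2C embryos were at 39.8 or above. RLTR6_Mm rose by 1.10 ± 0.23 in controls (edgeR, adjusted p = 0.000613), a change of 0.93 when control 2C replicate 4 was left out. In Kdm5b embryos its change was 0.36 ± 0.17 (edgeR, adjusted p = 0.098).

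MuRRS-int, the internal part of a murine retrovirus-related sequence, varied widely between single zygotes. Control zygotes ran from 4.62 over 35.7 to 76.2 repeat CPM and control 2C embryos from 45.3 over 124 to 293. Kdm5b zygotes ran from 17.7 over 26.8 to 35.6, all below the Kdm5b 2C embryos at 87.7, 117 and 185. The rise was 1.89 ± 0.33 in controls (edgeR, adjusted p = 0.00012) and 2.17 ± 0.17 in Kdm5b embryos (edgeR, adjusted p = 6.62e-10).

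The remaining names of this kind gave smaller changes. MMERGLN-int, from a larger gammaretrovirus-like family, had medians of 262 repeat CPM in control zygotes and 331 in control 2C embryos. Its change of 0.45 ± 0.15 passed the adjusted p alone (edgeR, adjusted p = 0.0289). It was -0.02 with plain repeat totals and 0.77 with gene factors (edgeR, adjusted p = 0.000392). RLTR4_MM-int, the internal part of murine leukaemia virus copies, had medians of 387 and 329.5 repeat CPM and a change of -0.33 ± 0.11 in controls and -0.34 ± 0.09 in Kdm5b embryos. Both passed the adjusted p alone (edgeR, adjusted p = 0.028 and 0.00517), and with gene factors the changes were -0.02 and 0.07. RLTR1B-int changed by 0.19 ± 0.09 in controls and -0.07 ± 0.07 in Kdm5b embryos, neither of which passed with repeat factors. With gene factors the changes were 0.48 and 0.34 (edgeR, adjusted p = 0.00135 and 0.000665). With plain repeat totals they were -0.30 and -0.40 (edgeR, adjusted p = 0.0466 and 0.00123), so the direction rests on the scaling.

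IAP elements encode an intracisternal A particle that buds into the endoplasmic reticulum. In controls 4 of 25 IAP names rose and none fell, with a median log2 fold change of 0.64, and in Kdm5b embryos 6 of 24 rose and none fell, with a median of 0.58. With gene factors 9 and 12 rose. Over all repeats tested, 3.91% in controls and 5.26% in Kdm5b embryos were called higher with repeat factors, and 9.56% and 15% with gene factors. IAPEz-int, the internal part of an active IAP subfamily, was the member with the most counts at 2C. Its lowest, median and highest values were 1114, 2497 and 3940.3 repeat CPM in control zygotes, 1309.98, 2110.4 and 3349 in Kdm5b zygotes, 3039, 3737 and 6789.97 in control 2C embryos and 2155, 3534 and 3873 in Kdm5b 2C embryos. The stages overlapped in both injections. The change was 0.87 ± 0.19 in controls (edgeR, adjusted p = 0.00108) and 0.62 ± 0.15 in Kdm5b embryos (edgeR, adjusted p = 0.00204), past the adjusted p but not past a doubling. With gene factors it was called in both, at 1.17 and 1.04.

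Its LTRs gave different values by subtype. IAPLTR1_Mm had medians of 34.5 and 71.1 repeat CPM in control zygotes and control 2C embryos and rose by 1.12 ± 0.23. IAPLTR2a had medians of 10.9 and 28.9 and rose by 1.35 ± 0.29 in controls and by 1.06 ± 0.21 in Kdm5b embryos. IAPLTR1a_Mm, IAPLTR2_Mm and IAPLTR2b changed by -0.06 ± 0.36, 0.38 ± 0.18 and 0.19 ± 0.19 in controls, and none of the 3 passed with repeat factors. IAPLTR2_Mm passed the adjusted p alone in controls with gene factors, at 0.68 (edgeR, adjusted p = 0.0111). In Kdm5b embryos it did so with repeat factors, at 0.56 (edgeR, adjusted p = 0.0110), and all 3 did so with gene factors. IAPLTR1a_Mm turned to 0.26 with gene factors, while IAPLTR2_Mm and IAPLTR2b turned to -0.11 and -0.30 with plain repeat totals. Whether the subtypes differ from each other was not tested.

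IAP1-MM_I-int separated the control stages completely, at a repeat CPM of 139 to 241 in zygotes (median 200.5) and 263 to 373 in 2C embryos (median 324). Its change of 0.73 ± 0.11 (edgeR, adjusted p = 1.04e-05) passed the adjusted p alone, and it was called with gene factors at 1.03. In Kdm5b embryos it was 0.40 ± 0.10, with samples of 127 to 229 in zygotes and 215 to 319 at 2C.

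The IAPEY subfamilies, named for copies on the Y chromosome, gave smaller or less certain values in controls. IAPEY3-int had medians of 45.9 and 74.2 repeat CPM and a change of 0.68 ± 0.22 in controls. In Kdm5b embryos it rose by 1.37 ± 0.20 (edgeR, adjusted p = 9.79e-06), with medians of 36.4 in zygotes and 95.4 at 2C. IAPEY4_I-int changed by 0.68 ± 0.31, IAPEY3_LTR by 0.64 ± 0.42, IAPEy-int by 0.25 ± 0.17 and IAPEY_LTR by 0.20 ± 0.26 in controls, and none of these 4 passed. IAP-d-int had a negative change, unlike the class median. It had medians of 60.8 repeat CPM in control zygotes and 46.7 in control 2C embryos, a change of -0.34 ± 0.23. For Kdm5b embryos the change of -0.87 ± 0.16 passed the adjusted p alone (edgeR, adjusted p = 9.57e-05), and all 6 Kdm5b 2C values (21.7 to 36.4) lay below all 10 zygotes (38.7 to 80.9). With gene factors these 2C and zygote values overlapped. IAPA_MM-int was near the limit of detection, at 0 to 5.03 repeat CPM in every group.

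ETn elements and MusD are a pair of related families in which the non-coding ETn depends on the enzymes of MusD. None of the 5 names was called in controls and 1 was in Kdm5b embryos, while 3 in each injection passed the adjusted p alone in the higher direction. Among all repeats tested 3.91% were called higher in controls and 5.26% in Kdm5b embryos. ETnERV-int, an internal part of this group, had 29.6, 62.9 and 91.5 repeat CPM in control zygotes and 87.9, 109 and 153 in control 2C embryos. The corresponding values were 26.3, 55.3 and 65.1 in Kdm5b zygotes and 69.97, 118 and 177 in Kdm5b 2C embryos, which did not overlap. Its change was 0.88 ± 0.15 in controls (edgeR, adjusted p = 0.000113), and it rose by 1.16 ± 0.18 in Kdm5b embryos (edgeR, adjusted p = 1.82e-05). ETnERV3-int changed by 0.79 ± 0.17 and 0.97 ± 0.13, MMETn-int by 0.58 ± 0.21 and 0.55 ± 0.15, and ETnERV2-int by 0.31 ± 0.14 and 0.47 ± 0.15. RLTRETN_Mm, the LTR, had medians of 51.1 and 49.7 repeat CPM in control zygotes and control 2C embryos and changed by -0.13 ± 0.21, or by 0.20 with gene factors.

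No MMERVK name was called in either injection with repeat factors. MMERVK10C-int, the internal part of an ERVK family with coding-competent copies, had 316, 539.8 and 697 repeat CPM in control zygotes and 461, 728 and 1228 in control 2C embryos. Its changes of 0.67 ± 0.15 in controls (edgeR, adjusted p = 0.00172) and 0.70 ± 0.15 in Kdm5b embryos (edgeR, adjusted p = 0.000465) passed the adjusted p alone. MMERVK10D3_I-int changed by 0.90 ± 0.23 and 0.59 ± 0.19 and MMERVK9E_I-int by 0.42 ± 0.20 and 0.82 ± 0.17. MMERVK9C_I-int had medians of 368 in either kind of zygote, 381 in control 2C embryos and 364 in Kdm5b 2C embryos, and changes of 0.05 ± 0.08 and 0.06 ± 0.07.

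Over all repeats tested, 3.91% were called higher in controls and 5.26% in Kdm5b embryos. ERVB had 1 of 21 members higher in each injection and a median change of 0.25 in controls and 0.13 in Kdm5b embryos. None of the 3 MYSERV names was called with repeat factors. The named LTRs ERVB4_1-LTR_MM and ERVB7_1-LTR_MM changed by 0.45 ± 0.45 and 0.23 ± 0.22 in controls. ERVB4_1B-I_MM, an internal part, changed by 0.84 ± 0.18 in controls and 0.74 ± 0.16 in Kdm5b embryos, which passed the adjusted p alone and was called with gene factors in both. MYSERV6-int, the MYSERV name with the most counts, had medians of 654 and 546 repeat CPM and a change of -0.22 ± 0.09 in controls, or 0.08 with gene factors. MYSERV16_I-int changed by 0.29 ± 0.12 in controls and 0.53 ± 0.09 in Kdm5b embryos, and MYSERV-int by 0.42 ± 0.31 and 0.79 ± 0.16. Of the 20 MLTR names, 1 rose in controls and 3 rose in Kdm5b embryos. MLTR11A, the MLTR name with the most counts in control zygotes, had medians of 1081 repeat CPM in control zygotes and 783 in control 2C embryos and changes of -0.38 ± 0.07 and -0.51 ± 0.08, which were -0.07 and -0.10 with gene factors.

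The other RLTR names were 166 of the 249 members tested in controls and 167 of the 249 in Kdm5b embryos. With repeat factors, 14 of the 21 rises and both falls in controls were among them, with a median change of 0.18. In Kdm5b embryos they held 15 of the 27 rises and all 4 falls, with a median of 0.24. RLTR10, the LTR that pairs by name with RLTR10-int, had 839, 1379.7 and 2533 repeat CPM in control zygotes and 1122, 1326 and 2711 in Kdm5b zygotes. It had 359, 484 and 784 in control 2C embryos and 452, 519 and 693 in Kdm5b 2C embryos. Every 2C sample was below every zygote in both injections on this scale, and with gene factors in Kdm5b embryos only. RLTR10 fell by 1.47 ± 0.16 in controls (edgeR, adjusted p = 1.46e-07) and by 1.44 ± 0.16 in Kdm5b embryos (edgeR, adjusted p = 1.59e-07), and it was called under all 3 scalings in both injections.

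RLTR10-int, the member with the most counts in zygotes, had 1564, 2986 and 4526 repeat CPM in control zygotes and 996, 1610.4 and 2345 in control 2C embryos. Its changes of -0.89 ± 0.17 in controls (edgeR, adjusted p = 0.0003) and -0.70 ± 0.16 in Kdm5b embryos (edgeR, adjusted p = 0.000864) passed the adjusted p alone. They were -0.57 and -0.28 with gene factors. RLTR10C, a related LTR, changed by 0.52 ± 0.24 in controls and 0.52 ± 0.15 in Kdm5b embryos. Over the 10 names with the stem RLTR10, the median change was -0.06 in controls and -0.31 in Kdm5b embryos, and with repeat factors RLTR10 was the only one called. RLTR10F was called higher in controls with gene factors, at 1.00, and RLTR10A and RLTR10-int were called lower in both injections with plain repeat totals.

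RLTR20B3A_MM fell in both injections with repeat factors. It had 182, 229.6 and 312 repeat CPM in control zygotes and 69.9, 92.8 and 159 in control 2C embryos, and 174, 209 and 281 in Kdm5b zygotes and 37.1, 56.3 and 81.9 in Kdm5b 2C embryos. The stages did not overlap on this scale, but with gene factors they overlapped in controls. The fall was 1.13 ± 0.15 in controls (edgeR, adjusted p = 4.66e-06) and 1.88 ± 0.14 in Kdm5b embryos (edgeR, adjusted p = 4.2e-10). With gene factors the control change of -0.81 was no longer past a halving, and among single intact embryos it was -0.93. The other 2 members that fell in Kdm5b embryos were RLTR42, by 1.03 ± 0.11, and RLTR44B, by 1.05 ± 0.29, both named here because the count was small. Without Kdm5b 2C replicate 5 the number of members that fell there was 2.

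RLTR13 contributed 4 of the rises in each injection, out of 21 names in controls and 22 in Kdm5b embryos, with median changes of 0.43 and 0.62. Beside this, 3.91% and 5.26% of all repeats tested were called higher. RLTR13D3 separated the control stages, at 10.5 to 33.3 repeat CPM in zygotes (median 18.6) and 37.0 to 66.6 in 2C embryos (median 49.95). It rose by 1.30 ± 0.19 in controls, and changed by 0.99 ± 0.16 in Kdm5b embryos. RLTR13D5, an LTR known as an enhancer in trophoblast stem cells, had medians of 54.5 and 91.5 repeat CPM without overlap and a change of 0.79 ± 0.11 in controls, called with gene factors at 1.10. In Kdm5b embryos that change was 0.44 ± 0.11. RLTR13G had few counts, with medians of 5.35 and 15.1 repeat CPM, and rose by 1.37 ± 0.40 in controls and 1.48 ± 0.29 in Kdm5b embryos. Among single intact embryos its control change was 1.28 and did not pass (edgeR, adjusted p = 0.06405).

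RLTR25A had 17.6, 27.0 and 48.7 repeat CPM in control zygotes and 49.4, 59.3 and 102 in control 2C embryos. These stages did not overlap on this scale, but did with gene factors. With repeat factors the rise was 1.25 ± 0.17 in controls (edgeR, adjusted p = 5.84e-06) and 1.25 ± 0.13 in Kdm5b embryos (edgeR, adjusted p = 1.04e-07). RLTR9D, from an LTR group that carries sites for pluripotency factors in embryonic stem cells, had medians of 31.4 and 45.8 and changed by 0.67 ± 0.18 in controls and 0.46 ± 0.13 in Kdm5b embryos. RLTR20A4, RLTR17 and RLTR19-int had small changes in controls, of 0.23 ± 0.08, -0.23 ± 0.12 and -0.18 ± 0.09. Only that of RLTR20A4 passed the adjusted p (edgeR, adjusted p = 0.0278), and with gene factors it was 0.53 (edgeR, adjusted p = 5.75e-06). In Kdm5b embryos the 3 changes were 0.19, -0.29 and -0.40 with repeat factors, all past the adjusted p alone (edgeR, adjusted p = 0.0176, 0.0117 and 0.000272). All 3 control changes turned sign under another scaling, RLTR20A4 to -0.25 with plain repeat totals and the other 2 to 0.08 and 0.13 with gene factors.

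An internal part and its LTR did not always give the same value. In 24 pairs matched by name, the internal part lay above its LTR in 16 in each injection, and the signs matched in 12 pairs in controls and 15 in Kdm5b embryos. RLTR45-int had 46.8, 59.8 and 79.8 repeat CPM in control zygotes and 67.6, 125 and 201 in control 2C embryos, and rose by 1.15 ± 0.17 (edgeR, adjusted p = 1.79e-05). Its LTR, RLTR45, had medians of 115 and 78.4 and a change of -0.44 ± 0.11, which was -0.12 with gene factors. In Kdm5b embryos the changes were 0.55 ± 0.15 and -0.54 ± 0.12. RLTR44-int changed by 0.37 ± 0.21 in controls. The pair IAP1-MM_I-int and IAP1-MM_LTR had the reverse order, with 0.73 and 1.73 in controls. Across all members, 4 of 42 internal parts and 17 of 207 LTRs rose in controls, with medians of 0.42 and 0.20, beside 3.91% of all repeats tested.

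In the 2 stage comparisons under all 3 scalings, 5 members were called each time. The share of all repeats called each time was not counted, so this number has no background beside it. RLTR6-int, MuRRS-int, IAPLTR3-int and RLTR30B_MM rose and RLTR10 fell. IAPLTR3-int and RLTR30B_MM were picked out after their values had been seen. IAPLTR3-int went from a median of 12.6 to 39.3 repeat CPM in controls, and from 9.06 to 34.8 in Kdm5b embryos. RLTR30B_MM went from 3.38 to 14.4 in controls and from 3.89 to 11.1 in Kdm5b embryos. The plot of single members by sample shows the spread behind the main rises and falls.

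**Figure D4:**
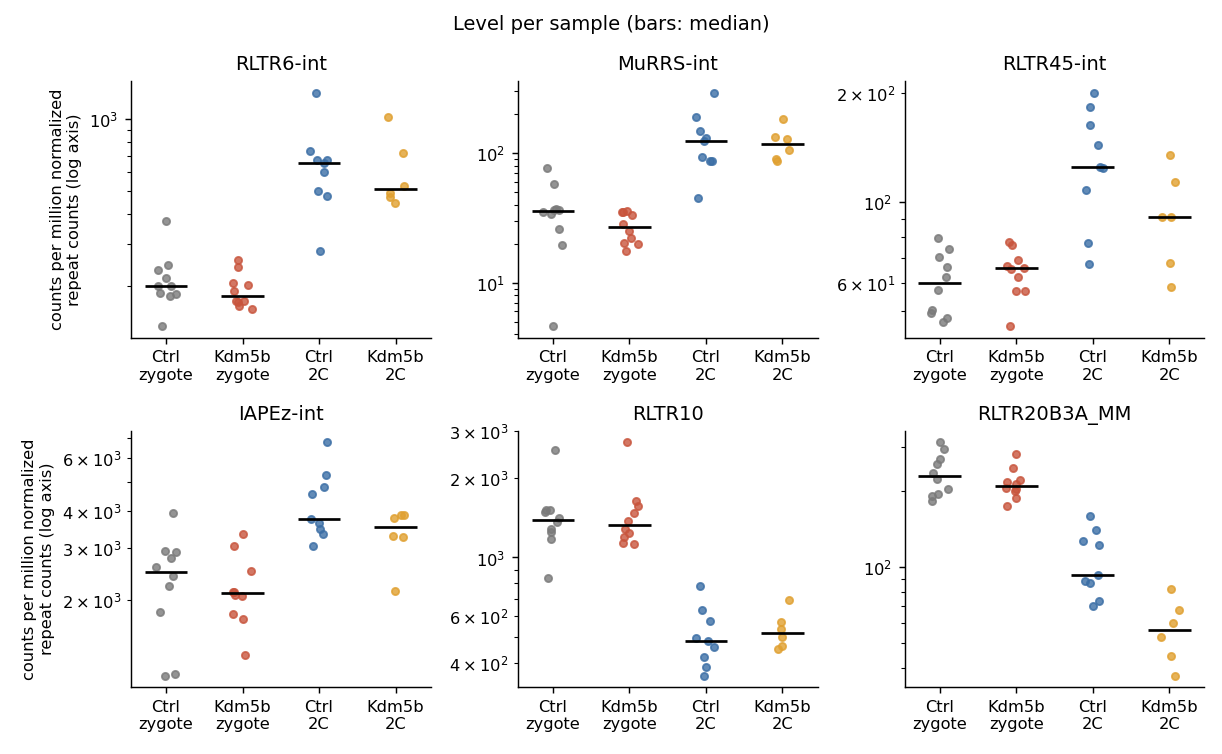
TMM-adjusted repeat CPM (log axis) of 6 members in each sample of the 4 groups; each point is 1 sample and the bars mark group medians. RLTR6-int and MuRRS-int had higher medians at 2C (657 and 124 in controls against 200.0 and 35.7 in zygotes), and RLTR10 and RLTR20B3A_MM lower ones (484 and 92.8 against 1379.7 and 229.6).

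The injection itself was tested within each stage, which is free of the difference in library day between stages. In zygotes 0 of 246 members were called with repeat factors and 0 with gene factors, as was 0% of the 2616 repeats tested. Without adjustment, 10 members (4.07%) had a p under 0.05 with repeat factors (edgeR), beside 5.35% of all repeats tested. With gene factors 7 (2.85%) did, also beside 5.35%, and DESeq2 called 0. The fitted changes ran from -0.94 to 0.78 with a median standard error of 0.163, and 238 of 246 lay within 0.5 of zero. For 226 members (91.9%) the 95% interval of the change lay within 1 on the log2 scale in either direction, so a doubling or halving of those members was outside their interval. The smallest adjusted p was 0.8378.

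The zygote values with the smallest p were small or rested on few counts. ERVB4_1B-I_MM had medians of 41.8 repeat CPM in controls and 51.0 with Kdm5b, a difference of 0.26 ± 0.11. RLTR34D_MM differed by 0.26 ± 0.09 and RLTR6_Mm by 0.43 ± 0.16. In the other direction ERVB5_1-LTR_MM differed by -0.85 ± 0.28 with medians of 4.66 and 2.79, RLTR48B by -0.94 ± 0.41 with medians of 4.13 and 2.26, and RLTR4_MM-int by -0.17 ± 0.07 with medians of 387 and 358. None of these 6 passed the adjusted p. Summed members were 2.38% of repeat counts with Kdm5b and 2.49% without, a difference of -1035 repeat CPM (permutation test, adjusted p = 0.536). By the strips of 8 consecutive library index numbers, it was -2636, 1531 and -2963 on the same plain scale in strips 8, 9 and 10. It thus differed in sign between strips. Relative to gene counts the difference was -134 CPM (permutation test, adjusted p = 0.8702), and it was 127 when control zygote replicate 5 was left out.

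At the 2C stage 0 of 251 members were called with either set of factors, as was 0% of 2692 repeats. Here 15 members (5.98%) had an unadjusted p under 0.05 with repeat factors (edgeR), beside 6.61% of all repeats tested. With gene factors 19 (7.57%) did, beside 7.5%, and DESeq2 called 0. Changes ran from -1.11 to 1.03, the median standard error was 0.257, and 172 members (68.5%) had a 95% interval within 1 in either direction. The 2C comparison was thus less precise than that of zygotes, and the smallest adjusted p was 0.2665. That value belonged to RLTR20B3A_MM, with medians of 92.8 repeat CPM in controls and 56.3 with Kdm5b and a difference of -0.88 ± 0.21. The groups overlapped, since Kdm5b samples reached 81.9 and control samples went down to 69.9.

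The other differences named at 2C were RLTR20B3 at 0.85 ± 0.31, MLTR18D_MM at 0.58 ± 0.27, MYSERV16_I-int at 0.32 ± 0.15, MLTR31C_MM at -0.71 ± 0.28 and RLTR31C_MM at -0.35 ± 0.14. None passed the adjusted p. With the index strip as a covariate MLTR31C_MM was called, at -1.15 (edgeR, adjusted p = 0.03047). Strip 11 held 3 control and 5 Kdm5b samples and strip 12 held 6 and 1, so injection and strip overlap in part. None of the members with many counts passed. IAPEz-int differed by -0.34 ± 0.16, RLTR10-int by 0.12 ± 0.17, RLTR10 by 0.08 ± 0.15, MMERVK10C-int by -0.11 ± 0.19 and RLTR6-int by -0.08 ± 0.24.

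Member sums at 2C were 1.96% of repeat counts with Kdm5b and 1.91% without, a difference of 492 repeat CPM (exact permutation test, adjusted p = 0.8702). Relative to gene counts the difference was -74.7 CPM (exact permutation test, adjusted p = 0.9275). On either scale the sign turned when some single samples were left out. The class shares gave 1 difference that passed. The other RLTR names took 53.8% ± 1.00 (SD, n = 6) of member counts with Kdm5b and 51.0% ± 2.26 (SD, n = 9) in controls (exact permutation test, adjusted p = 0.0162). Without RLTR10-int, IAPEz-int and RLTR10 the shares were 58.3 and 57.6% (exact permutation test, adjusted p = 0.458). Within strip 11 they were 53.9 and 51.0% (exact permutation test, p = 0.1071). The IAP share of 20.2 against 23.7% did not pass (exact permutation test, adjusted p = 0.05594), and within strip 11 it was 20.3 against 24.6% (exact permutation test, p = 0.1786). No class share passed in zygotes, where the smallest adjusted p was 0.2208.

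An interaction term over all 4 groups tested the difference between the Kdm5b effects in zygotes and in 2C embryos. Again 0 of 256 members were called with repeat or gene factors, as was 0% of 3065 repeats. With repeat factors 24 members (9.38%) had an unadjusted p under 0.05 (edgeR), beside 6.66% of all repeats tested. With gene factors 17 (6.64%) did, beside 6.88%, and DESeq2 called 0. The smallest p belonged to RLTR20B3A_MM at -0.76 ± 0.21 (edgeR, adjusted p = 0.3461) and RLTR34D_MM at -0.69 ± 0.20 (edgeR, adjusted p = 0.3461). RLTR20B3 at 1.01 ± 0.33, RLTR48B at 1.78 ± 0.59 and RLTR31C_MM at -0.42 ± 0.15 followed. The stage difference of RLTR20B3A_MM was thus larger with Kdm5b in the fit of each injection (-1.88 against -1.13), without the difference between them passing the test.

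**Figure D5:**
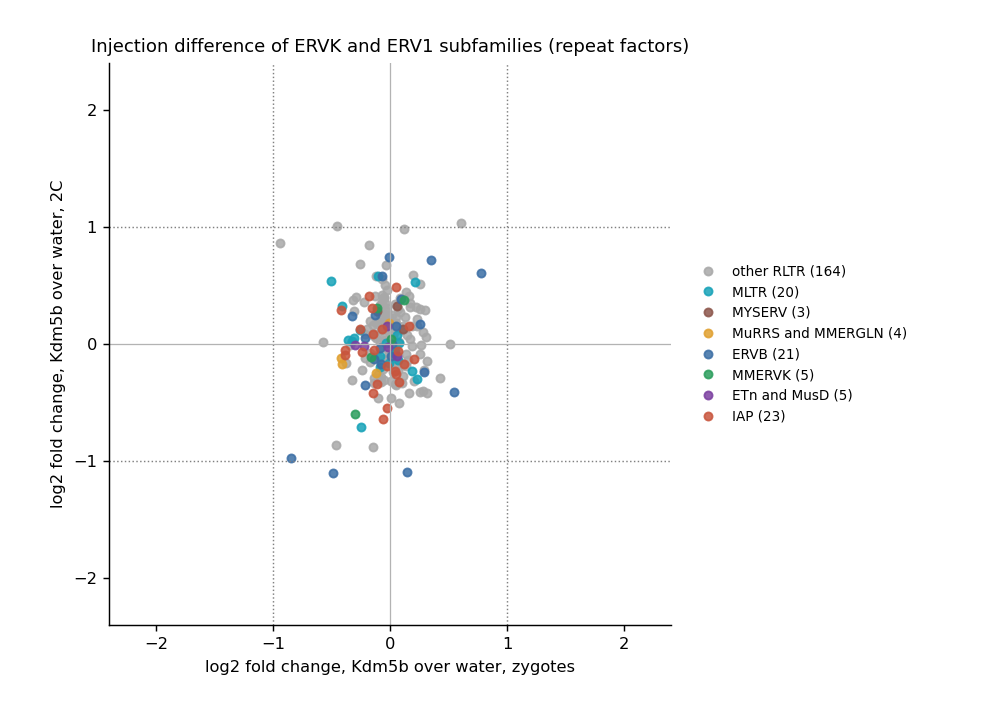
Log2 fold change of Kdm5b over water for each member fitted at both stages, in zygotes (x axis) and in 2C embryos (y axis), with repeat factors; colours mark the name classes and dotted lines a change of 1. Changes ran from -0.94 to 0.78 in zygotes and from -1.11 to 1.03 in 2C embryos, and no member was called at either stage.

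A list of 37 candidate repressors of such repeats was read from the gene counts of the same samples, and all 37 were tested. Whether each of these genes acts on the members was not tested. Over all genes 9.2% rose and 13% fell between control stages, and 10.5% rose and 16% fell between Kdm5b stages. In controls 3 listed genes rose and 3 fell. Prdm9, a meiotic H3K4 methyltransferase, rose by 2.22, Cbx3, which encodes the heterochromatin protein HP1 gamma, by 2.80, and Zfp809, a zinc-finger gene that targets proviral leukaemia virus sequences, by 1.79 ± 0.32. Dnmt1, the maintenance DNA methyltransferase, fell by 2.37 ± 0.16, Mphosph8, a subunit of the HUSH complex, by 1.94, and Sumo2, which encodes a SUMO modifier, by 2.12.

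Dnmt1 had a median of 1799.7 CPM in control zygotes (1284 to 2701) and 341 in control 2C embryos (204 to 492), without overlap. Zfp809 went from a median of 6.22 to 18.7 CPM and Cbx3 from 1.21 to 4.95, close to the detection limit. Trim28, the common cofactor of KRAB zinc-finger proteins, had medians of 87.2 and 48.6 CPM and a change of -0.99 ± 0.17. Setdb1 had medians of 409 and 275 CPM and a change of -0.66 ± 0.13. Both passed the adjusted p alone in controls. Dppa3, which protects maternal chromatin against demethylation, had medians of 1246 and 1201 CPM and a change of -0.05 ± 0.08.

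In Kdm5b embryos Prdm9 and Cbx3 rose and 7 listed genes fell between stages, namely Dnmt1 by 2.21, Mphosph8 by 2.35, Sumo2 by 2.72, Chaf1a, a subunit of the CAF-1 histone chaperone, by 1.24, Setdb1 by 1.10, Hells, a chromatin remodeller, by 1.01, and Trim28 by 1.01. Without Kdm5b 2C replicate 5 the number that fell was 4. Between Kdm5b and control embryos 0 of the 37 were called at either stage, beside 0.00838% of all genes tested in zygotes and 0.00817% in 2C embryos. In zygotes 4 (10.8%) had an unadjusted p under 0.05 (edgeR), beside 10.3% of all genes tested. At 2C 9 (24.3%) did, beside 9.41% of all genes, and DESeq2 called 0 in zygotes and 0 at 2C. Rif1 had the smallest p in zygotes at -0.18 ± 0.05 (edgeR, adjusted p = 0.1989), and Chaf1a that at 2C, at -0.53 ± 0.16 (edgeR, adjusted p = 0.2798). Zfp809 differed by -1.09 ± 0.40 at 2C (edgeR, adjusted p = 0.3775).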

How the data were processed

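RNA of 35 samples of mouse zygotes and 2C embryos was sequenced with a stranded single-cell kit in paired reads. Per the study's methods and processing notes, reads were trimmed with fastp 0.21.0 and aligned with STAR 2.7.3a to GRCm38. The deposited gene counts are whole reads per gene from featureCounts 1.5.1. The deposited repeat table holds estimated counts per repeat name, which the authors made with Salmon through SalmonTE against annotated repeat copies with short flanks; its version and the copies' positions were not given in the sources used here. The authors removed repeats that overlap Kdm5b.

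Repeat values (5.04% not whole) were rounded. edgeR 4.0.16 (R 4.3.3) fitted each comparison on its own groups by the quasi-likelihood test, with filterByExpr at a minimum count of 10, TMM factors and Benjamini-Hochberg adjustment over all repeats tested. Gene factors used the gene counts without Kdm5b. Fold changes are log2 with standard errors, and levels are counts per 1000000 (CPM) of TMM-adjusted repeat totals. Single values per sample were compared by two-sided permutation tests (scipy 1.17.1), exact except where both groups had 10 samples, which used 100000 resamples. DESeq2 1.42.0 was an alternative. Scripts were tested on simulated data.

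The members, name classes and gene lists were chosen with earlier results of these data known. Members named in the text were those of a fixed list of well-known subfamilies, the 6 higher and 6 lower of smallest p among those called between the control stages with either set of factors, the 3 higher and 3 lower of smallest p in each injection comparison, the 8 of largest share in control zygotes and up to 5 of smallest p for the interaction. Genes named were listed genes called in a comparison (at most 6), otherwise the 3 of smallest p, and Trim28, Setdb1, Dnmt1, Dppa3 and Zfp809. Members outside these rules are named as such or to complete a count. Simple repeats were recognised by names of a motif between underline characters (17169 of 18536), and names with an I before a final MM counted as internal parts. Strips were inferred from library index numbers, 8 to a strip. Plain repeat totals, adjusted totals, ratios to other classes, class shares and strip 11 alone were added after seeing the data. Same-numbered samples did not deviate together in 3 of the 4 comparisons, and in the zygotes, where same-numbered samples share an index strip, 4 of 10 pairs had a correlation over 0.1. As not every pair did, replicate numbers were not used as pairs. No repeat sequences or copy positions were used here.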

Additional observations from a re-analysis of the deposited data

Results flagged for a closer look

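In each group the highest and lowest sample of every named member was compared with the others, and a sample was picked out when its gap to the nearest value, relative to the range of the group, passed Dixon's 95% critical value. Of 256 groups tested, 21 (8.2%) held such a sample, where chance alone gives about 5%. Values are TMM-adjusted counts per 1000000 repeat counts.

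Control 2C replicate 2 held 5 of them. It had 24.1 of ERVB5_1-LTR_MM where the next sample had 8.14, 8.15 of ERVB7_1-LTR_MM where the next had 33.2, 283 of MMERVK9C_I-int where the next had 364, 104 of RLTR17 where the next had 198, and 625.0 of RLTR19-int where the next had 428. The remaining control 2C values were 13.7 of ERVB4_1-LTR_MM in replicate 3 (next 6.28) and 1292 of RLTR6-int in replicate 4 (next 737). Control zygote replicate 5 stood high for 3 members, with 27.5 of IAPLTR2a (next 16.7), 48.7 of RLTR25A (next 34.1) and 376 of RLTR6-int (next 244). Control zygote replicate 3 had 480 of MMERGLN-int (next 308) and 32.2 of RLTR1B (next 52.5), replicate 7 had 11.1 of ERVB5_1-LTR_MM (next 6.62), and replicate 10 had 2533 of RLTR10 (next 1508).

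Kdm5b zygote replicate 8 had 2711 of RLTR10 (next 1629), 5157 of RLTR10-int (next 3401) and 126.5 of IAP1-MM_I-int (next 199.9). Among Kdm5b 2C embryos, replicate 1 had 21.7 of IAP-d-int (next 33.1), replicate 4 had 2155 of IAPEz-int (next 3252), and replicate 5 had 479 of MMERVK9C_I-int (next 374) and 58.05 of RLTR9D (next 40.0). No member moved in opposite directions between every sample of the 2 stages.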

How the results depend on the processing

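The count of members called between stages depended on the scaling and the threshold. Between control stages it was 47 higher and 1 lower with gene factors, 6 and 16 with plain repeat totals, 13 and 4 without simple repeats, 55 and 20 without the fold threshold, and 109 and 6 with gene factors and no fold threshold; 1 fell among single intact embryos. Between Kdm5b stages these were 69 and 2, 9 and 14, 15 and 10, 89 and 31, and 159 and 11, and 15 rose among repeats with a mean of at least 50 counts. Between Kdm5b and control 2C embryos 1 member was called without the filter (ERVB4_2-LTR_MM, -1.09, also the 1 called for the interaction without the filter, at -1.25) and 1 when index strip was a covariate (MLTR31C_MM). Listed repressor genes without the fold threshold numbered 9 higher and 10 lower in controls and 9 and 13 in Kdm5b embryos. The cause was not tested for any of these except where fewer features or samples entered.

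Leaving out single samples gave 15 to 22 higher and 2 to 3 lower members in controls, 17 to 30 and 2 to 6 in Kdm5b embryos (17 and 2 without Kdm5b 2C replicate 5), 0 to 0 in the injection comparisons, and 3 to 4, 3 to 4, 2 to 3 and 4 to 9 listed genes in the order above. Summed members then ranged, in CPM of repeat and gene counts, from -6433 to -5224 and 1769 to 2398 (control stages), -4784 to -3497 and 1650 to 2380 (Kdm5b stages), -1617 to -523 and -318 to 127 (zygotes), and -82.5 to 1204 and -576 to 248 (2C). Without the 3 members of largest share, the Kdm5b stage difference was -1972 (permutation, adjusted p = 0.0724) and the 2C gene-scale difference turned to 149. With adjusted totals the stage differences turned to 1262 and 413 and the 2C differences to -1096 and 275.

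With the replicate number as a replicate block, 14 members rose and 2 fell in controls and 25 and 3 in Kdm5b embryos, 1 listed gene rose in Kdm5b embryos, and no other count moved by over 1.5 times. Correlations of same-numbered samples passed 0.1 in 0 of 9, 0 of 6, 4 of 10 and 0 of 6 pairs, so not every pair passed in any comparison and the numbers were not taken as pairs.

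Signs of members with small control stage changes turned. With plain repeat totals these were ERVB4_1-LTR_MM -0.075, ERVB7_1-LTR_MM -0.23, ETnERV2-int -0.17, IAPA_MM-int -0.38, IAPEY_LTR -0.26, IAPEy-int -0.21, IAPLTR2_Mm -0.11, IAPLTR2b -0.30, MMERGLN-int -0.023, MMERGLN_LTR -0.38, MMERVK9C_I-int -0.42, MMERVK9E_I-int -0.041, MYSERV-int -0.067, MYSERV16_I-int -0.19, RLTR1B-int -0.30, RLTR20A4 -0.25 and RLTR44-int -0.11. Gene factors gave IAPLTR1a_Mm 0.26, MYSERV6-int 0.084, RLTR17 0.076, RLTR19-int 0.13, RLTR1B 0.15 and RLTRETN_Mm 0.20. Without simple repeats, IAPA_MM-int was -0.031, MMERGLN_LTR -0.075 and MMERVK9C_I-int -0.12, and without the filter MMERVK9C_I-int was -0.0067. IAPA_MM-int was -0.10 among single intact embryos and -0.60 with the replicate block, which gave MMERGLN_LTR -0.12. With single samples left out, IAPA_MM-int ran from -0.27 to 0.29, IAPLTR1a_Mm from -0.19 to 0.10, and MMERGLN_LTR and RLTRETN_Mm also crossed 0, at -0.15 to 0.22 and -0.20 to 0.0043.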
